A study of Mus musculus with 4 samples.

Results

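Elastic fibres are made of an elastin core laid down on a scaffold of fibrillin microfibrils. The fibulins, which bind elastin, fibrillins and basement membrane proteins, help to bring the parts together, and small microfibril-associated glycoproteins decorate the scaffold. In adipose tissue these proteins belong to the matrix that stromal cells and fat cell precursors secrete around the fat cells. The 10 genes described here encode the elastin precursor (Eln), the fibulins Fbln1, Fbln2, Fbln5, Efemp1 (fibulin 3) and Efemp2 (fibulin 4), fibrillin 2 (Fbn2) and the microfibril-associated proteins Mfap2, Mfap4 and Mfap5. They were matched to the array by gene symbol, and the set was drawn up with earlier results of these data known. A probe set is the group of short probes by which an Affymetrix array reads a transcript, and 17 probe sets with a single gene symbol read 9 of the 10 genes. Efemp2 was not analysed here. The filter on low values was passed by 7 of the 9 genes, out of 11600 genes that passed it in the whole data set, and Fbn2 and Mfap4 did not pass.

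The cells were mouse de-differentiated fat (DFAT) cells, fibroblast-like cells that arise when mature fat cells lose their lipid in culture, kept in DMEM with 10% FBS. Total RNA came from DFAT cells treated with Y-27632, which blocks the ROCK kinases that drive actomyosin contraction, with DMSO-treated cells as its control, and from DFAT cells transfected with Mkl1 siRNA, with Control siRNA cells as its control. Mkl1, now named Mrtfa, encodes an actin-regulated coactivator of the transcription factor SRF. The labels used here give no dose, no duration, no strain, age or sex of the mice and no mention of agents that promote fat cell formation. Each group had 1 array, so no difference below has a replicate check, no p-value is given and precision is limited by the number of arrays. Values are log2 RMA signals, in which a step of 1 is a 2-fold change in signal, and a difference is the treated array minus its own control array. The filter asked that the highest of the 4 arrays reach 5.69, the median of all values. A gene was counted as higher or lower from a 2-fold difference. Counts of these genes were set beside a background, the share of all analysed genes past the same fold in the same direction and comparison. The difference between the control arrays, Control siRNA minus DMSO, is given as well.

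Before the values, the stretches just upstream of 3 of these genes are shown, because Efemp1, Fbln1 and Fbln5 had the largest ranges over the 4 arrays and differed in direction. Each is the 150 bases before the gene's 5′ end, from RefSeq promoter windows of GRCm38.p6, printed 5′ to 3′ on the gene's own strand with CG dinucleotides in capitals. The Efemp1 stretch lies at chr11:28853004-28853153 on the plus strand, the Fbln1 stretch at chr15:85205799-85205948 on the plus strand and the Fbln5 stretch at chr12:101819120-101819269 on the minus strand.
Efemp1: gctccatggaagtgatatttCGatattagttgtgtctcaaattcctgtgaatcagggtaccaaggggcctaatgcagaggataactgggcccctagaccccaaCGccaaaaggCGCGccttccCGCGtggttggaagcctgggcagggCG
Fbln1: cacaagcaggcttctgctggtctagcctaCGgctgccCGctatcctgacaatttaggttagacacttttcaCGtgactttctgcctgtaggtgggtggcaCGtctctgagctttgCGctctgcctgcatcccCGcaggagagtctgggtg
Fbln5: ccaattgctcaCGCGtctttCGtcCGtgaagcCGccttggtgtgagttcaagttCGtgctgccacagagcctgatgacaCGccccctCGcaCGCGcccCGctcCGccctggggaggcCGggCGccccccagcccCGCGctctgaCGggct
The Fbln5 stretch held 17 CG dinucleotides and was 70% G or C, the Efemp1 stretch held 7 at 55.3% and the Fbln1 stretch held 6 at 56.7%. Over the same number of bases before the start site, the 32851 windows of the table had a median of 4, with 1 and 11 at the quartiles.

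RefSeq windows, each from 250 bases before to 50 bases after a start site, were matched by symbol for 6 of the 10 genes (Efemp1, Efemp2, Fbln1, Fbln2, Fbln5 and Mfap2), 11 windows in all. The CArG box, the element bound by SRF, was found in 0 of these 11 windows and in 1.63% of all 32851 windows. The motif GGAATG, searched on both strands and known as the core of the element bound by the TEAD partners of YAP and TAZ, was found in 1 of the 11, upstream of Mfap2, and in 14.7% of all windows. These are matches of letters in short windows and say nothing of binding elsewhere.

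With Y-27632 the fibulins differed in direction. Fbln1 was higher than with DMSO by 1.04, a ratio of 2.05, and Fbln5 was lower by a difference of -0.96, a ratio of 0.516, just short of 2-fold. Elastin, Mfap2, Mfap5, Fbln2 and Efemp1 lay within 0.13 of their DMSO values on either side. With Mkl1 siRNA the leading difference was in Efemp1, at -1.96 from Control siRNA, a ratio of 0.256. Fbln2 at -0.99 and Fbln5 at -0.64 were also below Control siRNA, Fbln1 was above it by 0.79, and elastin stood at -0.02.

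Of the 7 analysed genes, 1 (Fbln1) passed 2-fold in the higher direction with Y-27632 and 0 in the lower, as did 1.27% and 0.224% of all 11600 genes. With Mkl1 siRNA 0 passed 2-fold in the higher direction and 1 (Efemp1) in the lower, as did 1.79% and 1.74% of all genes. A count of 1 in 7 is too small to read against these shares. At 1.5-fold 1 gene was higher and 1 lower with Y-27632, beside 3% and 1.33% of all genes, and 1 was higher and 3 were lower with Mkl1 siRNA, beside 5.42% and 5.91%. The 7 differences had a median of -0.10 with Y-27632, and one of -0.34 with Mkl1 siRNA, beside 0.00 over all genes in both comparisons. The first turned to 0.06 with the mean of all probe sets, and the second shrank to -0.08 without the filter and also when probe sets open to several transcripts were left out. Between the control arrays, Control siRNA minus DMSO, 0 of the 7 passed 2-fold in either direction, beside 0.957% higher and 1.09% lower of all genes, and their median was 0.22. With the control arrays exchanged, Y-27632 against Control siRNA gave 0 higher and 1 lower (Fbln5), beside 2.03% and 0.75% of all genes. Mkl1 siRNA against DMSO gave 1 higher (Fbln1) and 1 lower (Efemp1), beside 2.73% and 3.23%. The first 2 comparisons share no array. In them 5 of the 7 genes were below 0 in both, 1 (Fbln1) was above 0 in both and 1 (Efemp1) differed in sign. Over all 11600 genes 57.6% had the same sign in both, 3300 below 0 and 3379 above 0. For 4 of the 7 (Eln, Fbln5, Mfap2 and Mfap5) the probe sets differed in sign in at least 1 of the comparisons, so this count rests on the probe set with the highest mean.

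**Figure D1:**
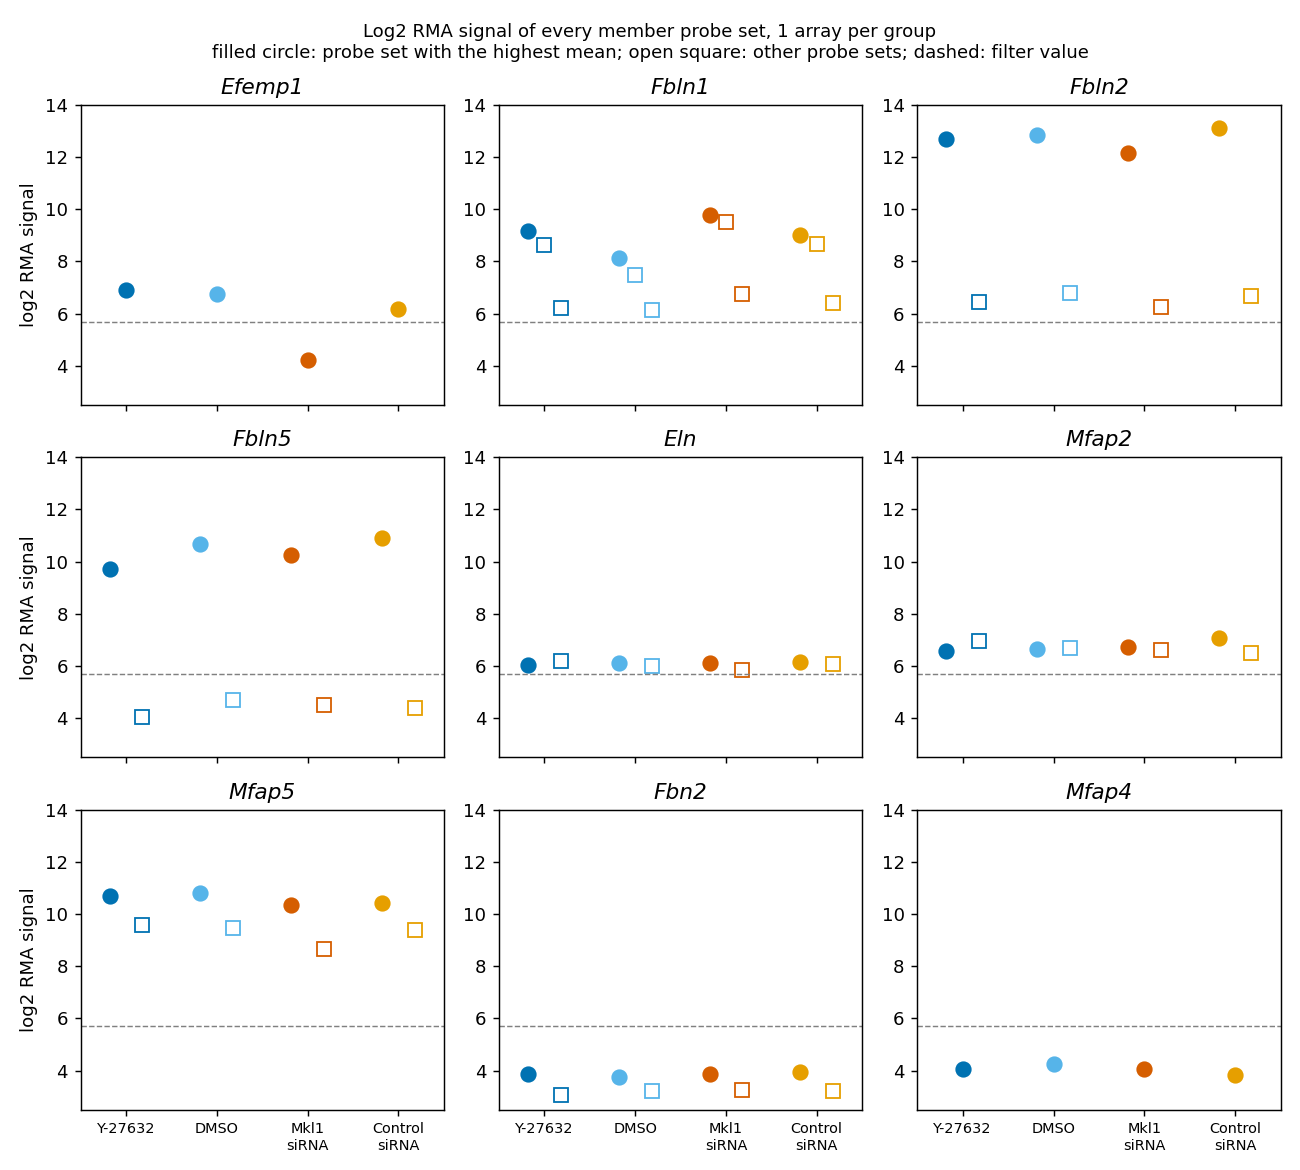
Log2 RMA signal (vertical axis) of every probe set of the 9 measured genes on the Y-27632, DMSO, Mkl1 siRNA and Control siRNA arrays (horizontal axis), 1 point per array. Filled circles are the probe set with the highest mean, open squares the others, and the dashed line is the filter value of 5.69, which Efemp1 falls below only on the Mkl1 siRNA array, at 4.21.

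Efemp1 encodes fibulin 3, a secreted glycoprotein with repeated EGF-like domains that is found along basement membranes and in connective tissue. Its single probe set gave 6.88 with Y-27632, against 6.76 with DMSO. It had 4.21 with Mkl1 siRNA, against 6.17 with Control siRNA. The Mkl1 siRNA array thus stood apart from the other 3, which lay between 6.17 and 6.88. Only 18 of the 11600 genes, Efemp1 included, had a difference of -1.96 or lower. Control siRNA differed from DMSO by -0.58, and from DMSO the Mkl1 siRNA value differed by -2.54. The Mkl1 siRNA signal lay under the filter value, where RMA compresses differences, and Efemp1 passed the filter through the other 3 arrays.

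Fbln1 encodes fibulin 1, which binds fibronectin, laminin and other matrix proteins and is found in basement membranes and on elastic fibres. On its probe set with the highest mean, which by its name may bind several transcripts, it had a log2 signal of 9.16 with Y-27632, against 8.12 with DMSO. The same probe set had 9.78 with Mkl1 siRNA, against 8.99 with Control siRNA. The DMSO array was the lowest of the 4 and the Mkl1 siRNA array the highest. Control siRNA alone was above DMSO by 0.87, and only 149 of the 11600 genes, Fbln1 included, had that difference or a higher one, so the gap between the control arrays was close in size to both treatment differences. Against Control siRNA, Y-27632 stood at 0.17.

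The second Fbln1 probe set gave the same order of arrays at the ends. It had 8.61 with Y-27632, against 7.46 with DMSO, and 9.50 with Mkl1 siRNA, against 8.67 with Control siRNA. Its differences were 1.15 with Y-27632, 0.83 with Mkl1 siRNA and 1.21 between the control arrays, and against Control siRNA the Y-27632 value was lower, at -0.06. The third, with log2 signals between 6.14 and 6.74, differed by 0.06 with Y-27632 and by 0.33 with Mkl1 siRNA. The mean of the 3 probe sets, 0.75 with Y-27632, was short of 2-fold. Fbln1 with Mkl1 siRNA was thus the highest of the 4 arrays on each of its probe sets.

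Fbln5 encodes fibulin 5, which binds tropoelastin, fibrillin and integrins, and mice that lack it fail to organise elastic fibres. It had a log2 signal of 9.72 with Y-27632, against 10.68 with DMSO. It had 10.26 with Mkl1 siRNA, against 10.89 with Control siRNA. Both treated arrays lay below both control arrays, which differed from each other by 0.22. The Y-27632 difference of -0.96 was matched or passed in the lower direction by 33 of the 11600 genes, Fbln5 included, and against Control siRNA it was -1.17. The Mkl1 siRNA difference of -0.64 was matched or passed by 578 genes, Fbln5 included, and against DMSO it was -0.42. The other Fbln5 probe set stayed between 4.04 and 4.68, under the filter value, and differed by -0.65 with Y-27632 and by 0.12 with Mkl1 siRNA.

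Fbln2 encodes fibulin 2, a large fibulin that binds elastin, fibrillin and proteoglycans in vessel walls and connective tissue. It had a log2 signal of 12.70 with Y-27632, against 12.82 with DMSO. It had 12.14 with Mkl1 siRNA, against 13.13 with Control siRNA. The Mkl1 siRNA array was the lowest of the 4, and its ratio of 0.505 to Control siRNA was just short of 2-fold. Control siRNA was above DMSO by 0.30, and against DMSO the Mkl1 siRNA value differed by -0.68. This probe set may bind several transcripts by its name. The other Fbln2 probe set, which had 6.24 with Mkl1 siRNA and 6.67 with Control siRNA, differed by -0.43, and by -0.34 with Y-27632 from DMSO.

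**Figure D2:**
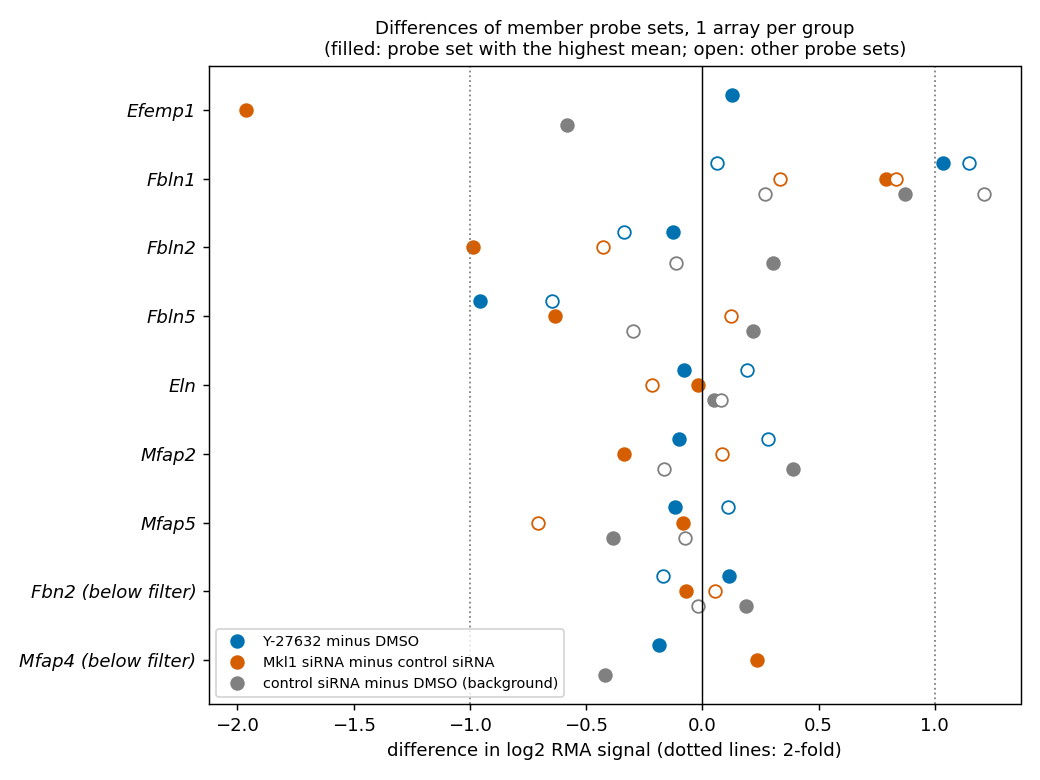
Difference in log2 RMA signal (horizontal axis) for each probe set of the 9 measured genes, with Y-27632 (blue, from DMSO), with Mkl1 siRNA (orange, from Control siRNA) and, in grey, for Control siRNA from DMSO. Dotted lines mark 2-fold: Efemp1 lies past the lower one with Mkl1 siRNA at -1.96, and Fbln1 lies past the upper one with Y-27632 at 1.04 while its grey point stands at 0.87.

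Eln encodes tropoelastin, the soluble precursor that is crosslinked into the elastic core. Its first probe set gave 6.02 with Y-27632, against 6.10 with DMSO, and 6.13 with Mkl1 siRNA, against 6.15 with Control siRNA. These 4 values spanned only 0.13. The second probe set had 6.18 with Y-27632, against 5.99 with DMSO, and 5.86 with Mkl1 siRNA, against 6.07 with Control siRNA. Its differences, 0.19 and -0.22, were small, and on both probe sets the elastin signal lay within 0.5 of the filter value. Elastin was the least variable of the 7 analysed genes across the 4 arrays on the probe set with the highest mean.

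Mfap2 and Mfap5 encode the small glycoproteins MAGP1 and MAGP2, which bind fibrillins along the microfibril. Mfap5 had a log2 signal of 10.69 with Y-27632, against 10.81 with DMSO, and 10.35 with Mkl1 siRNA, against 10.43 with Control siRNA. Its second probe set had 9.57 with Y-27632, against 9.46 with DMSO, and 8.67 with Mkl1 siRNA, against 9.38 with Control siRNA. The probe sets of Mfap5, both annotated to the same gene, thus gave -0.08 and -0.71 for Mkl1 siRNA. The second placed Mkl1 siRNA clearly lowest of the 4 arrays. Mfap2 had 6.56 with Y-27632, against 6.66 with DMSO, and 6.72 with Mkl1 siRNA, against 7.05 with Control siRNA. Its second probe set gave 0.28 for the Y-27632 difference and 0.09 for that of Mkl1 siRNA, so both Mfap2 differences changed sign with the probe set.

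The genes under the filter were Fbn2, whose product fibrillin 2 forms microfibrils mainly in developing tissue, and Mfap4, whose fibrinogen-like product binds elastin and collagen. Fbn2 had log2 signals between 3.77 and 3.96 on one probe set and between 3.06 and 3.26 on the other. Mfap4 had 4.07 with Y-27632, against 4.25 with DMSO, and 4.07 with Mkl1 siRNA, against 3.83 with Control siRNA. No treatment difference of either gene exceeded 0.23 in size. At this signal a change could be hidden, and no detection call was used here.

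Agreement between probe sets was limited. Of the 7 genes read by more than 1 probe set, all probe sets pointed the same way for 3 with Y-27632 and for 4 with Mkl1 siRNA. In both comparisons Fbln1 and Fbln2 were among those that pointed the same way.

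**Figure D3:**
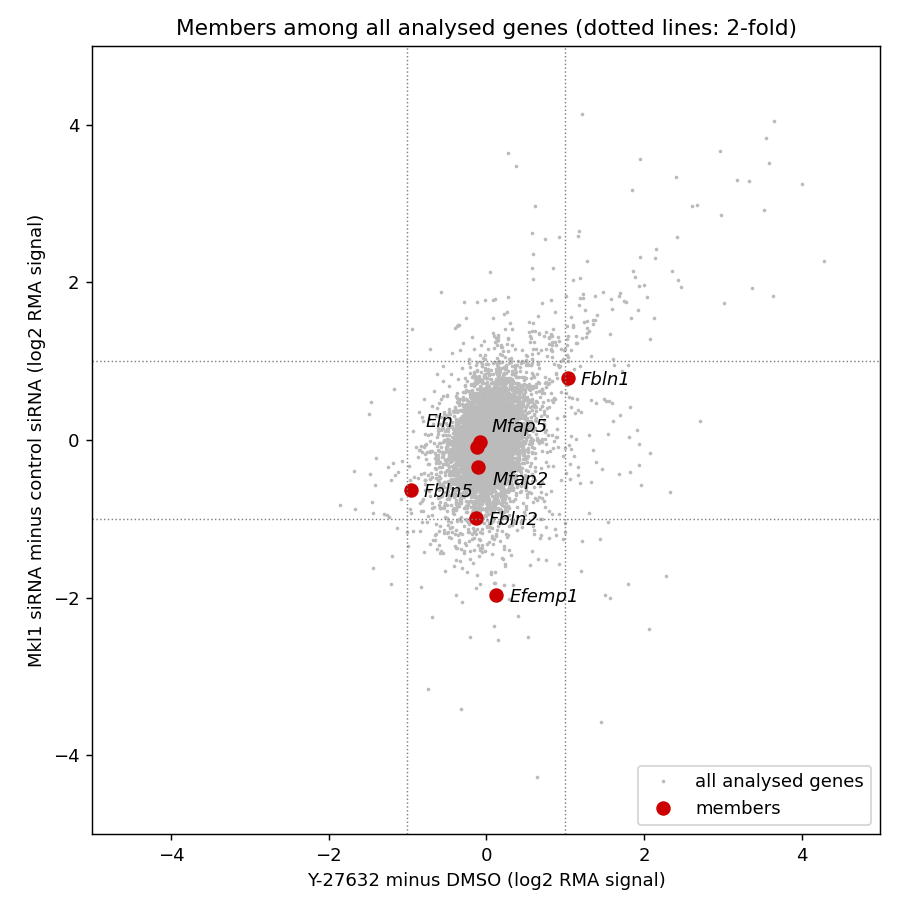
Difference with Y-27632 from DMSO (horizontal axis) against difference with Mkl1 siRNA from Control siRNA (vertical axis), both in log2 RMA signal, for 11600 genes (grey) and the 7 analysed genes (red). Dotted lines mark 2-fold; Fbln1 lies in the upper right at 1.04 and 0.79, Fbln5 in the lower left at -0.96 and -0.64, and Efemp1 at 0.13 and -1.96.

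The targeted transcript Mrtfa had a log2 signal of 7.70 with Mkl1 siRNA and 8.55 with Control siRNA, a difference of -0.85. It had 8.18 with Y-27632 and 8.32 with DMSO. Of 8 fibroblast and adipose progenitor markers listed, all 7 measured (Pdgfra, Pdgfrb, Col1a1, Col1a2, Col3a1, Thy1 and Dlk1) were above the filter value on every array. Dlk1, between 5.98 and 6.25, lay close to that value, and the rest stood at 11.18 or more. Of the 8 adipocyte markers, 7 were at least 2-fold higher with Y-27632 and 7 with Mkl1 siRNA, beside 1.27% and 1.79% of all genes. Differences ran from 0.25 (Lpl) to 3.55 (Adipoq) for Y-27632 and from 0.25 (Lpl) to 3.83 (Adipoq) for Mkl1 siRNA. Against the other control array these counts were 5 and 7, beside 2.03% and 2.73%, with Pparg at 0.93 and Cebpa at 0.53 for Y-27632. The second Lipe probe set gave -0.16 with Y-27632 and -0.25 with Mkl1 siRNA. Of the 5 analysed of 6 smooth muscle markers, 4 were below DMSO with Y-27632 (median -0.59), beside 49.4% of all genes. With Mkl1 siRNA 5 were below Control siRNA (median -0.76), beside 49.8%. The exception with Y-27632 was Smtn (smoothelin) at 0.33, and Myh11, under the filter, stood at 0.90. All 7 measured fibroblast and adipose progenitor markers were below Control siRNA with Mkl1 siRNA, beside 49.8% of all genes, with a median of -0.32. That median was close to the -0.34 of the elastic fibre genes, which shrank to -0.08 without the filter. Against DMSO 6 of the 7 markers were below, with a median of -0.24, and the elastic fibre genes had one of -0.42. Of these markers Col1a1, a chain of type I collagen, was the furthest at -1.05. With Y-27632 5 of the 7 fibroblast and adipose progenitor markers were above DMSO, beside 50.4% of all genes, and their median was 0.04. Against Control siRNA 3 were above and the median was -0.01. At most 1 of 6 endothelial and 2 of 6 macrophage and leukocyte markers reached the filter value on any array, and the leukocyte marker Ptprc stayed between 3.33 and 3.48. The log2 of the summed adipocyte signal was 15.70 with Y-27632 and 14.60 with DMSO, and 15.83 with Mkl1 siRNA and 14.65 with Control siRNA. The part of these shifts in the fibulin differences was not tested, and in such bulk RNA fewer cells of a type and less RNA per cell cannot be told apart.

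For the 3 genes with the widest range, the analysed genes with the most similar course over the 4 arrays were found by the Euclidean distance between signals after each gene's mean was subtracted. With 4 arrays this is a description only. For Efemp1 they were Kcnmb1, a potassium channel subunit, at a distance of 0.195, 4930447F24Rik at 0.196 and Cpb1, a carboxypeptidase, at 0.286. Kcnmb1 differed by 0.07 with Y-27632 and by -1.97 with Mkl1 siRNA. For Fbln1 they were the glutathione transferase Mgst3 at 0.100, the phosphatidate phosphatase Lpin1 at 0.150 and the lipid-sensing receptor Trem2 at 0.224. Mgst3 was higher by 1.11 with Y-27632 and by 0.91 with Mkl1 siRNA, and by 0.86 between the control arrays. For Fbln5 they were Pxdc1 at 0.284, the LIM domain protein Fhl1 at 0.302 and the zinc finger protein Zbtb38 at 0.317. Fhl1 differed by -0.96 with Y-27632 and by -0.63 with Mkl1 siRNA.

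The other genes of elastic fibres were read from 6 lists. In the list of further fibulin family and EMILIN genes, 5 of 8 were analysed. With Y-27632 0 passed 2-fold, beside 1.27% higher and 0.224% lower of all genes. With Mkl1 siRNA, where 1.79% of all genes were at least 2-fold higher, 1 of the 5 was. That gene was Fbln7, a small fibulin, which had 5.76 with Mkl1 siRNA, against 4.34 with Control siRNA, a difference of 1.42. It passed the filter only through the Mkl1 siRNA array, and its Y-27632 difference was -0.40. Emilin1, an elastic fibre glycoprotein, differed by 0.30 with Y-27632 and by -0.08 with Mkl1 siRNA, and its relative Emilin2 by 0.21 and -0.58. Both Emilin2 signs turned with the other control array, Y-27632 standing at -0.93 from Control siRNA and Mkl1 siRNA at 0.57 from DMSO. Emilin1 then stood at -0.0007 with Y-27632 and at 0.22 with Mkl1 siRNA, and its second probe set gave 0.02 with Y-27632 from DMSO. The list had a median of -0.11 for Y-27632 and one of -0.08 for Mkl1 siRNA, which turned to 0.22 against DMSO.

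Among other microfibril genes and latent TGF-beta binding proteins, 11 of 18 were analysed and 0 passed 2-fold in either comparison, with medians of -0.06 and -0.03. With Y-27632 the furthest from 0 were the proteoglycans Dcn (decorin) at 0.95 and Vcan (versican) at 0.52, then Ltbp4, which supports elastic fibre assembly, at -0.49 and the protease Adamts10 at -0.25. With Mkl1 siRNA they were Adamts10 at -0.68, Dcn at 0.60, Mfap3l at -0.50 and Ltbp1, which anchors latent TGF-beta, at 0.39. The second Adamts10 probe set gave -0.07 with Y-27632 and -0.01 with Mkl1 siRNA. Dcn was far lower with Control siRNA than with DMSO, at -2.07, so that Mkl1 siRNA stood at -1.46 from DMSO, and its second probe set gave 0.01 with Mkl1 siRNA. Mfap3l also turned, to 0.29 against DMSO, and Ltbp4 stood at 0.07 with Y-27632 against Control siRNA. Against the other control array the list median was -0.11 for Y-27632, and 0.26 for Mkl1 siRNA.

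Lysyl oxidases crosslink elastin and collagen. In the list of lysyl oxidases and elastin assembly, 7 of 9 genes were analysed. With Mkl1 siRNA 6 of them were below Control siRNA, beside 49.8% of all genes, with a median of -0.42. At least 2-fold lower was 1 of the 7, beside 1.74% of all genes. Loxl3, with 9.69 with Mkl1 siRNA against 10.70 with Control siRNA, differed by -1.01, and by -0.62 from DMSO, short of 2-fold. Lox differed by -0.80, with its 3 probe sets between -1.26 and -0.33, Slc2a10, a sugar transporter, by -0.51 and Loxl1 by -0.42. With Y-27632 the list median from DMSO was 0.00, 0 passed 2-fold and the furthest were Loxl4 at -0.43, Lox at -0.32, Loxl3 at -0.26 and Slc2a10 at 0.16. Against Control siRNA the Y-27632 median was -0.28, and 6 of the 7 were below 0, beside 47.5% of all genes. There Lox stood at -0.83, Loxl3 at -0.65, Loxl4 at -0.20 and Slc2a10 at 0.01. For this list Control siRNA was above DMSO by a median of 0.33, and the Mkl1 siRNA median against DMSO was -0.34.

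In the list of elastin-degrading enzymes, their inhibitors and the elastin receptor, 13 of 16 genes were analysed. With Y-27632 10 were above DMSO, as were 50.4% of all genes, and the median was 0.10. Fewer, 7, were above Control siRNA, as were 52.4% of all genes, with a median of 0.17. From DMSO the stromelysin Mmp3 at 1.15 was the 1 gene at least 2-fold higher, beside 1.27% of all genes. It stood at 0.57 against Control siRNA. Mmp9, a gelatinase, followed at 0.78 on one probe set, which passed the filter only through the Y-27632 array, and -0.01 on the other, then the cathepsin Ctsk at 0.49 and Mmp2 at 0.31. With Mkl1 siRNA 10 were below Control siRNA, as were 49.8% of all genes, and the median was -0.24. At least 2-fold lower were 2, Timp3 at -1.81 and Timp1 at -1.27, both inhibitors of metalloproteinases, beside 1.74% of all genes. Against DMSO Timp3 stood at -1.35 and Timp1 at -0.65, short of 2-fold. Ctsa, a partner of neuraminidase in the elastin receptor complex, stood at -0.55 and Mmp3 at 0.53 from Control siRNA. Against DMSO Ctsa stood at -0.17 and Mmp3 at 1.11, past 2-fold, beside 2.73% of all genes.

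Of 8 integrin subunits listed as parts of receptors for fibulins and microfibrils, 7 were analysed. In each comparison 1 was at least 2-fold higher, beside 1.27% of all genes with Y-27632 and 1.79% with Mkl1 siRNA. Itga8 was higher by 1.57 with Y-27632 and by 1.35 with Mkl1 siRNA, although its second probe set gave 0.55 and 0.20, and against Control siRNA the Y-27632 value stood at 0.79. The remaining 6 analysed subunits were below Control siRNA with Mkl1 siRNA, as were 49.8% of all genes, and the list median was -0.60. Itgb3, at -1.09, was the 1 gene at least 2-fold lower, beside 1.74% of all genes, and passed on 1 of its 2 probe sets. Itga5 stood at -0.82, with its 4 probe sets from -0.82 to -0.09. Itgav stood at -0.69, with its 5 probe sets from -1.17 to 0.06. With Y-27632 the median was 0.00, with Itgb1 at -0.46, Itgb3 at 0.28 and Itga9 at 0.18. The lowest probe sets of Itgb3 and Itga9 gave -0.10 and -0.12. Between the control arrays this list had a median of 0.67, Control siRNA being the higher. Against DMSO Itgb3 stood at -0.16 with Mkl1 siRNA, Itga5 at -1.01 and Itgav at -0.45, and the list median was -0.16. Against Control siRNA the Y-27632 median was -0.49, with Itgb3 at -0.65 and Itga9 at -0.49.

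Among 12 TGF-beta ligands, receptors and targets, 11 were analysed. With Y-27632 1 was at least 2-fold lower, the matricellular target Ccn2 at -1.43, beside 0.224% of all genes. The matrix protein Tgfbi at 0.95, the receptor Tgfbr1 at 0.74 and the inhibitory Smad7 at -0.23 followed, and the median was 0.06. The lowest Tgfbr1 probe set gave 0.04. With Mkl1 siRNA 9 were below Control siRNA, 0 passed 2-fold and the median was -0.33. Ccn2 differed by -0.93, the receptor Tgfbr2 and the ligand Tgfb2 by -0.57 each and Tgfbi by -0.51. Against DMSO the Mkl1 siRNA median was -0.18, with Ccn2 at -0.33, Tgfbr2 at -0.55, Tgfb2 at -0.07 and Tgfbi at -0.21. Against Control siRNA the Y-27632 median was -0.10, with Ccn2 at -2.03, Tgfbi at 0.66 and Tgfbr1 at 0.69. Of all 11600 genes, 49.8% were below Control siRNA with Mkl1 siRNA.

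**Figure D4:**
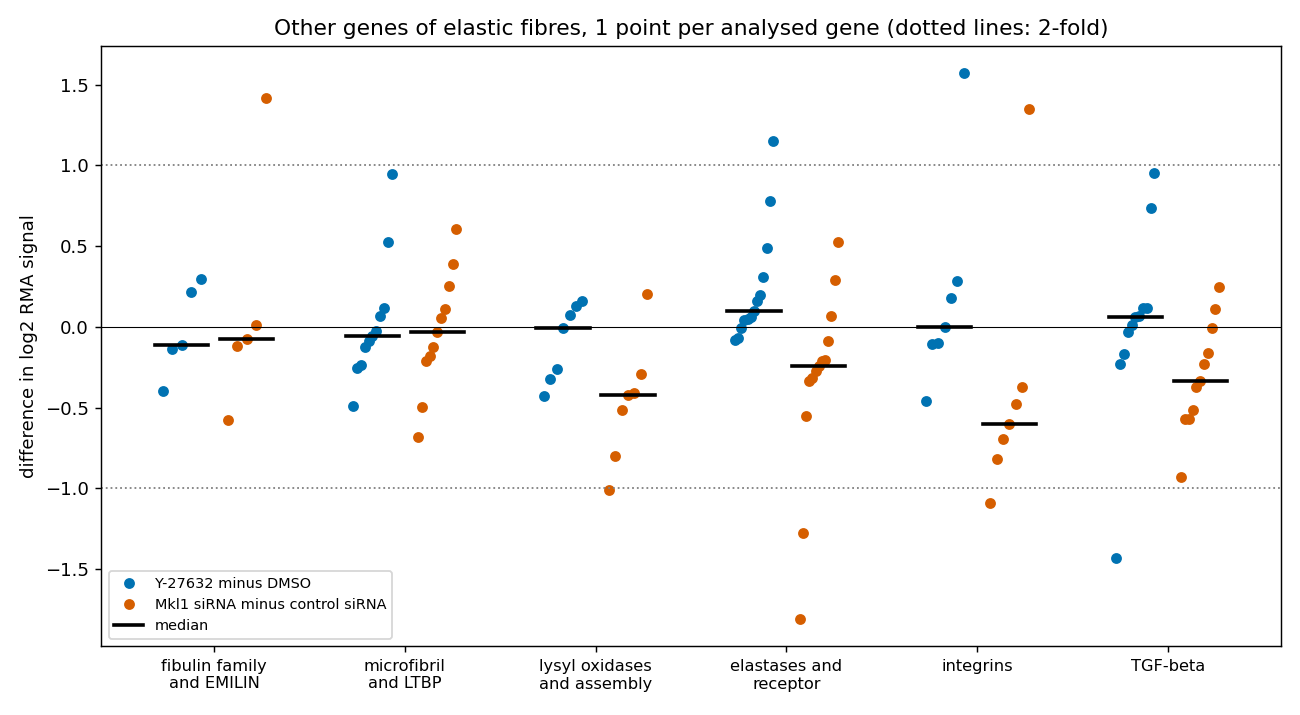
Difference in log2 RMA signal (vertical axis) of the analysed genes of the 6 lists (horizontal axis), 1 point per gene, with Y-27632 (blue, from DMSO) and Mkl1 siRNA (orange, from Control siRNA), with the median as a black bar. The Mkl1 siRNA medians of the lysyl oxidase, integrin and TGF-beta lists stand at -0.42, -0.60 and -0.33, and the Y-27632 medians of the 6 lists lie between -0.11 and 0.10.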

How the data were processed

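Total RNA of 4 groups, 1 array each, was measured on single-colour Affymetrix mouse arrays, and groups were taken from the sample titles. The authors deposited 1 log2 signal per probe set and array, for which the submitters' processing notes name RMA, a method of background correction, quantile normalisation and probe summary. Its version, the chip definition and the arrays it was run on together were not given in the sources used here. That the scale is log2 follows from the range of the values, 2.02 to 14.6, and array medians ran from 5.67 to 5.71. Quantile normalisation hides differences in total RNA per cell. No scanner files were used here.

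Probe sets with 1 symbol in the platform annotation (34958 of 45101; 932 had several and 9211 none) were named and updated by gene number through a RefSeq table of GRCm38.p6, used for names and 5′ ends. The 64 control probe sets were left out. Each of 18193 genes was represented by its probe set with the highest mean. Differences were computed in Python 3.11.15 with pandas 2.3.3 and tested on simulated data. No test was possible with 1 array per group.

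The genes and lists were chosen with earlier results of these data known. Named were all 10 genes, up to 4 genes per list and comparison furthest from 0, the 3 nearest courses for the 3 widest ranges, and Mrtfa. Some listed genes were not analysed here. A name ending in _s_at, _x_at or _a_at marks a probe set that may bind several transcripts. The alternatives tried were averaging a gene's probe sets, omitting those so marked, dropping the filter, raising it to 8.08 (75th percentile of all values), a loess correction by level (span 0.3), the median difference subtracted, a 1.5-fold threshold and the other control array. Protein sequences planned for comparison were not used here.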

Additional observations from a re-analysis of the deposited data

How the results depend on the processing

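The signs of Fbln1, Fbln2, Fbln5 and Efemp1 in both comparisons held in every alternative run, with Efemp1 between -2.54 and -1.88 with Mkl1 siRNA and Fbln5 between -1.17 and -0.80 with Y-27632. Fbln1 with Y-27632 ran from 0.17, against Control siRNA, to 1.15. With Y-27632 the count of genes at least 2-fold higher was 0 with the mean of all probe sets and 0 against Control siRNA, and the count lower was 1 against Control siRNA (Fbln5). With Mkl1 siRNA the count lower was 0 with the filter at the 75th percentile, which leaves 4 genes and drops Efemp1, and the count higher was 1 against DMSO (Fbln1). At 1.5-fold 1 gene was lower with Y-27632 (background 1.33%), and with Mkl1 siRNA 1 was higher (5.42%) and 3 were lower (5.91%). The median difference ran from -0.13 to 0.06 with Y-27632, turning sign with the mean of all probe sets, and from -0.42 to -0.08 with Mkl1 siRNA, weakest without the filter and with probe sets open to several transcripts left out. Elastin and Mfap2 changed sign with the alternative in both comparisons and Mfap5 with Y-27632. No paired analysis was possible because each group had 1 array. No replicate could be left out. Weak signals limit what can be said of Eln, Fbn2, Mfap4 and the Mkl1 siRNA value of Efemp1.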

Other observations

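Some genes of the elastic fibre lists differed at least 2-fold between the control arrays, and they were picked out here after their values were seen. Dcn differed by -2.07, with 10.55 with Control siRNA and 12.62 with DMSO, and its second probe set differed by -0.56. Emilin2, a matrix glycoprotein of the EMILIN family, was higher by 1.15, with 10.25 with Control siRNA and 9.10 with DMSO. The integrin subunit Itgb5 was higher by 1.12, with 11.87 with Control siRNA and 10.76 with DMSO, and its 4 probe sets ran from 1.08 to 1.18.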
